A study of Mus musculus with 4 samples.

Results

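The p53 pathway was followed in mouse long-term haematopoietic stem cells with and without Sin3B, through the p53 gene Trp53, its inhibitors Mdm2 and Mdm4, and 7 genes that p53 is known to switch on: Ccng1, Sesn1, Bax, Trp53inp1, Zmat3, Ei24 and Phlda3. The 10 genes were named by symbol. Library values were given for 8 of them, out of 9244 genes with values. Zmat3 and Phlda3 had none, so their RNA was not analysed here. RNA was sequenced from sorted cells of C57BL/6 mice of 8 to 12 weeks, in 2 libraries of wild-type (WT) cells and 2 of Sin3B knockout (KO) cells. The sort took LSK cells, which carry Sca-1 and Kit and no lineage markers, and among them those negative for CD34 and Flk2. How Sin3B was deleted, in which cells and at what time is not given in the sources used here. Nothing says that the 2 libraries of a genotype came from separate mice, so their spread may be technical. Values are read counts that the authors divided by a size factor of each library, called normalised read counts below. A difference is the mean of KO minus the mean of WT on the log2(value + 1) scale, tested with limma over all genes.

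p53 is a transcription factor that DNA damage and other stresses stabilise, and it acts by switching on genes for cell cycle arrest, repair, metabolism and cell death. Mdm2 is a ubiquitin ligase that marks p53 for degradation, and Mdm4 is its relative that binds p53 and blocks its activity. Mdm2 is itself a p53 target, so the protein's activity feeds back on its own level. In haematopoietic stem cells p53 is known to favour quiescence and to limit the survival of damaged cells. p53 activity is set mostly at the protein level, which RNA of Trp53 does not measure, so the target RNAs are the nearer readout of it.

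p53 binds as a tetramer to a pair of half-sites, each a palindrome of 10 bases, so both strands read alike. The half-site consensus was searched for, with no mismatch, from 250 bases before to 50 after each start site, in RefSeq promoters of build GRCm38.p6, whereas the authors used mm9. Promoters were given for 8 of the 10 named genes, Phlda3 among them. Of these 8 genes, 6 held an exact half-site, against 9.55% of all 27025 genes with a promoter. The genes were named for their part in the p53 pathway, most of them as p53 targets, so this is a description. A match is not shown to be a site that p53 uses in these cells. The matches are shown because they are a sequence feature that most of these genes have in common, with the half-site in capitals, 5′ to 3′ on the gene's strand.

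Ccng1, chr11:40755442-40755501, minus strand: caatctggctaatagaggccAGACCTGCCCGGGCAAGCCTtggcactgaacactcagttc
Bax, chr7:45467070-45467119, minus strand: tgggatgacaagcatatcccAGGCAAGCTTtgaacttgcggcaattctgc
Mdm2, chr10:117710915-117710964, minus strand: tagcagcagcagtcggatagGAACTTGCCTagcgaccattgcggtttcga
Sesn1, chr10:41887246-41887295, plus strand: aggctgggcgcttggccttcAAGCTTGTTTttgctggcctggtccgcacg
Trp53, chr11:69580264-69580313, plus strand: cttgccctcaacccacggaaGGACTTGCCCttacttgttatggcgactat
Ei24, chr9:36797335-36797364, minus strand: ccagctgccccgtgcggcccGGGCATGCCC

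Ccng1 was the 1 gene of the 8 with a pair: its exact half-site, whose last base lies 176 bases before the start, follows directly on a second half-site with 1 mismatch, both in capitals. Such a pair, with up to 13 bases between the half-sites and at most 1 mismatch in the second, was found in 0.718% of all genes with a promoter. In Ei24 the half-site ends at the base before the start. The Sesn1 match belongs to the second of its 2 promoters, and its first promoter, both promoters of Mdm4 and that of Phlda3 held no match in this window.

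None of the p53 genes changed past the threshold. Of the 8 genes with values, 0 passed at an adjusted p under 0.05 (limma, Benjamini-Hochberg, lowest adjusted p = 0.722), where 0% of all genes did. At an unadjusted p under 0.05 the count was also 0 of 8, against 8.91% of all genes tested, and the authors' deposited table gave an adjusted p under 0.05 to 0 of the 8, against 0.325% of genes. The median difference of the 8 genes was 0.12, against 0.03 over all genes, with 7 above 0 and 1 below. The lowest was -0.05 for Trp53inp1 and the highest 0.26 for Mdm4. The split above and below 0 depended on how the libraries were scaled: 4 of 8 genes were above 0 when libraries were scaled to the same total or the same upper quartile, and 6 of 8 with trimmed mean scaling. Upper quartile scaling moved the median of all genes by -0.11, after which 41.5% of all genes were above 0, against 53.4% before. Relative to the median of all genes the p53 genes stood at 0.08, a value that a common scaling hardly moves. With a library left out it was 0.16 without WT 1 or without KO 2, -0.02 without WT 2 and 0.04 without KO 1. With all 4 libraries but only genes of a mean of at least 500, which left 7 of the 8, it was -0.02. There the median was 0.08 for the p53 genes and 0.11 for all genes. Without WT 2 or without KO 1, 4 of the 8 genes were above 0.

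**Figure D1:**
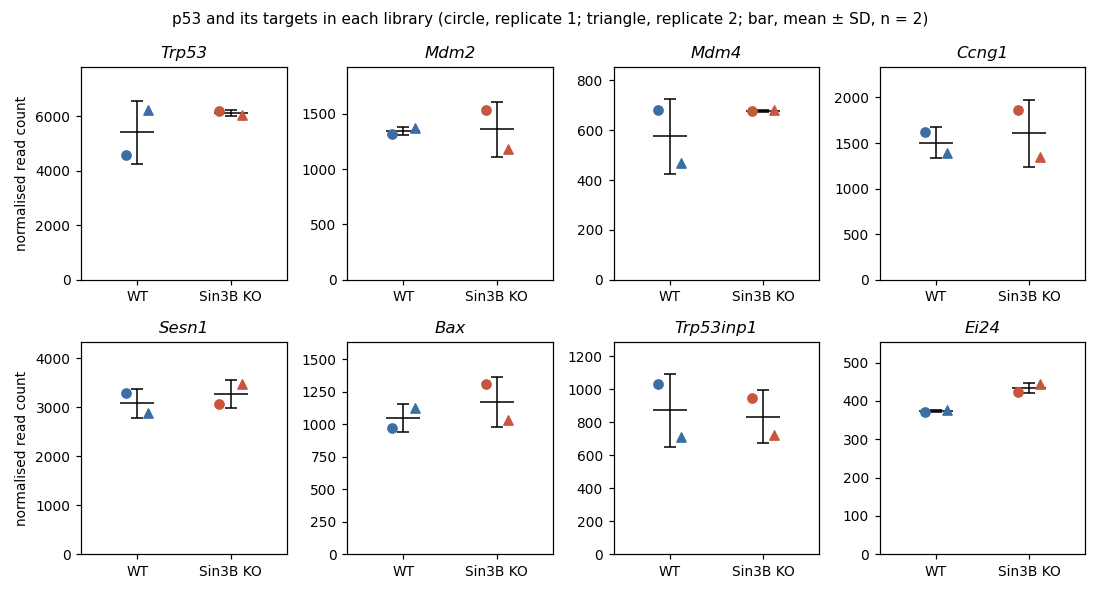
Normalised read count (y axes, each from 0) of the 8 p53 genes in the WT and Sin3B KO libraries; circles are replicate 1, triangles replicate 2, and bars the mean ± SD (n = 2). The WT and KO points overlap in height for every gene except Ei24, where the KO pair lies above the WT pair.

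The 4 libraries held between 9950979 and 13700630 reads in the listed genes, if the smallest step between values of a library is taken as 1 read. Sin3b, the targeted gene, was at 1522 and 1825 (WT) against 755.4 and 646.5 (KO), a difference of -1.25 (SE 0.22; limma adjusted p = 0.548). All 12 stem cell markers looked for had values, among them Procr, Mecom and Hlf, and their summed level ranged from 80206 to 92034 across the libraries. Of the 12 markers 1 had an unadjusted p under 0.05 (limma), against 8.91% of all genes. That marker was Fgd5, at 710.3 and 1240 (WT) against 256.6 and 643.0 (KO) (limma adjusted p = 0.548). RNA of Cd34 and of Flt3, which encodes Flk2, was present in all 4 libraries in spite of the gate. Cd34 was at 6508 and 5623 in WT 1 and KO 1, and 4945 and 5133 in WT 2 and KO 2. Flt3 was at 1170 and 830.4 in WT 1 and KO 1, and 371.9 and 354.0 in WT 2 and KO 2. Both were thus higher in the libraries numbered 1. The summed level of 10 myeloid markers was 56585 and 48665 in WT 1 and KO 1, and 12969 and 19595 in WT 2 and KO 2. Sums of 6 B lineage markers (3809 and 4465 against 1503 and 1703) and 6 erythroid markers (5158 and 7917 against 1608 and 2180) were likewise higher in the libraries numbered 1. Of the T and NK markers 2 of 6 had values, and of the endothelial and stromal markers 2 of 6, with none for Cd3e, Cd3d, Cd3g, Cdh5 and Kdr. The T and NK sum was 1952 and 2937 in WT 1 and KO 1, and 1570 and 1710 in WT 2 and KO 2. The endothelial and stromal sum was 1060 and 1968 in libraries 1 and 558.8 and 321.9 in libraries 2, so both were also higher in libraries 1. The markers with values were Nkg7 and Lck in the first list, and Pdgfrb and Cxcl12 in the second, Cxcl12 at 521.0 in WT 1, 48.5 in WT 2, 1432 in KO 1 and 80.3 in KO 2. In WT, Lck went the other way, at 350.0 in WT 1 and 379.8 in WT 2. So did Epor of the erythroid list, at 388.8 and 396.6. In bulk RNA, fewer cells of a type and less RNA per cell cannot be told apart.

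Trp53 itself, the gene of p53 on chromosome 11, was among the more abundant transcripts. Its normalised read count was 4596 in WT 1 and 6239 in WT 2, and 6207 in KO 1 and 6038 in KO 2. WT 1 stood below the other 3 libraries, which differed little from each other, and the WT and KO values overlapped. The means were 5418 ± 1162 (WT) and 6123 ± 119 (KO) (SD, n = 2). The difference was 0.19 (SE 0.21, 95% confidence interval -0.28 to 0.66; limma adjusted p = 0.737), which spans 0.825-fold to 1.58-fold. Without WT 1 the difference was -0.03, so the sign of the Trp53 difference rested on that library. A processed pseudogene, Trp53-ps, is annotated on chromosome 17, and how reads common to both were assigned is not given in the sources used here.

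Mdm2, the ubiquitin ligase of p53, encoded on chromosome 10, was nearly level. It was at 1320 in WT 1, 1374 in WT 2, 1536 in KO 1 and 1182 in KO 2. The WT values lay between the KO values, so the KO libraries bracketed the WT pair. Means were 1347 ± 37.9 (WT) and 1359 ± 251 (KO) (SD, n = 2). The difference was 0.00038 (SE 0.22, 95% confidence interval -0.49 to 0.50; limma adjusted p = 0.9999), so changes of the Mdm2 RNA beyond 0.710-fold to 1.41-fold lay outside the interval.

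Mdm4, the relative that masks the activation domain of p53, lies on chromosome 1 and had the largest difference of the 8. Its values were 681.8 in WT 1, 468.8 in WT 2, 675.7 in KO 1 and 679.5 in KO 2. Only WT 2 was low, and WT 1 was above both KO values. The means were 575.3 ± 151 (SD, n = 2) and 677.6 ± 2.73 (SD, n = 2). The difference of 0.26 had an SE of 0.26 and a 95% confidence interval of -0.34 to 0.86 (limma adjusted p = 0.722). Without WT 2 it was -0.0089. A processed pseudogene of Mdm4 is annotated on chromosome X, so its count carries the same uncertainty as that of Trp53.

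Ccng1, on chromosome 11, encodes cyclin G1, a classical p53 target that recruits a phosphatase to Mdm2. It was at 1622 in WT 1, 1389 in WT 2, 1864 in KO 1 and 1348 in KO 2. In both genotypes the library numbered 1 was the higher, and the 2 KO values bracketed the WT pair. The means were 1506 ± 165 (WT) and 1606 ± 364 (KO) (SD, n = 2). The difference between genotypes was 0.08 (SE 0.23, 95% confidence interval -0.44 to 0.60; limma adjusted p = 0.916).

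Sesn1, on chromosome 10, encodes sestrin 1, which restrains mTORC1 signalling and takes part in the defence against oxidative stress. Its values were 3289 in WT 1, 2872 in WT 2, 3057 in KO 1 and 3465 in KO 2. The groups overlapped, and the means of 3081 ± 295 and 3261 ± 288 (SD, n = 2) differed by less than 1 SD. The difference was 0.08 (SE 0.19) with a 95% confidence interval of -0.35 to 0.52, the narrowest of the 8 (limma adjusted p = 0.889). In fold terms the Sesn1 interval runs from 0.783 to 1.43.

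Bax (chromosome 7), Trp53inp1 (chromosome 4) and Ei24 (chromosome 9) belong to the cell death branch. Bax encodes the pore-forming member of the Bcl2 family that permeabilises the outer mitochondrial membrane. It was at 969.1 in WT 1, 1126 in WT 2, 1305 in KO 1 and 1032 in KO 2. KO 1 was the highest and WT 1 the lowest, and WT 2 lay above KO 2. The means were 1047 ± 111 (WT) and 1168 ± 193 (KO) (SD, n = 2). The Bax difference was 0.15 (SE 0.23, 95% confidence interval -0.36 to 0.66; limma adjusted p = 0.809). Of the Bax exons, 12.2% of bases are shared with an overlapping gene model on the same strand, so some of its reads could be assigned either way.

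Trp53inp1, a nuclear protein that promotes p53 phosphorylation and autophagy, was the 1 gene of the 8 with a lower mean in the KO. It was at 1030 in WT 1, 713.1 in WT 2, 946.7 in KO 1 and 721.4 in KO 2. Its 2 high values were the libraries numbered 1 and its 2 low values those numbered 2, whatever the genotype. The means were 871.3 ± 224 (WT) and 834.1 ± 159 (KO) (SD, n = 2). The difference between genotypes was -0.05 (SE 0.27, 95% confidence interval -0.66 to 0.55; limma adjusted p = 0.953), against 0.53 in WT and 0.39 in the KO between libraries 1 and 2. The sums of all 5 other-lineage marker lists were higher in the same libraries, though not every marker in them was. The part of these lists in the Trp53inp1 and Ccng1 values was not tested.

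Ei24, a membrane protein of the endoplasmic reticulum first found as an etoposide-induced gene, gave the closest replicates, averaged over both genotypes. It was at 371.7 in WT 1, 375.8 in WT 2, 423.9 in KO 1 and 443.2 in KO 2, with means of 373.8 ± 2.94 (WT) and 433.5 ± 13.7 (KO) (SD, n = 2). The KO pair lay wholly above the WT pair, which held for 1 of the 8 genes in that direction and for 24.7% of all genes. In the opposite direction it held for 0 of the 8 genes and for 19.4% of all genes. The difference of Ei24 was 0.21 (SE 0.27, 95% confidence interval -0.39 to 0.82; limma adjusted p = 0.771), as limma takes most of a gene's spread from genes of like abundance. An antisense gene overlaps 6.66% of its exon bases, and whether counting used strand is not stated.

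**Figure D2:**
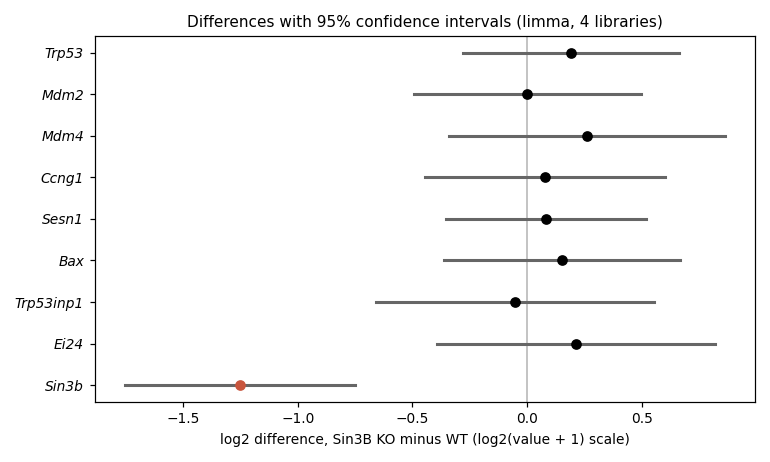
Difference between Sin3B KO and WT on the log2(value + 1) scale (x axis) for the 8 p53 genes and Sin3b, with points for the estimate and lines for the limma 95% confidence interval (4 libraries). All 8 p53 intervals include 0, and that of Sin3b runs from -1.75 to -0.75.

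The log2 fold changes in the authors' deposited table had the same signs for all 8 genes. The authors' deposited table gave 0.15 for Trp53, 0.01 for Mdm2, 0.18 for Mdm4 and 0.15 for Ei24. Among the 8 genes the lowest adjusted p in the authors' deposited table was 0.825, for Trp53, against 0.0025 for Sin3b.

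To compare abundance between genes, the mean over the 4 libraries was divided by the exon length of the gene, which a GENCODE annotation gave for 9000 of the genes. Trp53 came first at 1426 normalised reads per kilobase, higher than 96.2% of these genes. Sesn1 (796.3) and Bax (703.0) followed, and their libraries overlapped on this scale, at 721.3 to 870.1 for Sesn1 and 614.9 to 828.2 for Bax. Ccng1 was at 443.0 per kilobase, with libraries from 383.9 to 530.6, and Mdm2 at 266.2, with libraries from 232.5 to 302.2, so that these neighbours did not overlap. Trp53inp1 (131.7), Ei24 (82.9) and Mdm4 (42.3) were the lowest. In libraries, Trp53inp1 ranged from 110.1 to 159.0 and Ei24 from 76.4 to 91.0, again without overlap. Lengths are of the union of all annotated exons, 14798 bases for Mdm4 and 1576 for Bax, so a gene with long rare exons is placed too low.

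The 3 genes whose profile over the 4 libraries was most like that of Trp53 were Mrps11, of the mitochondrial ribosome, Mpg, a DNA glycosylase of base excision repair, and Ripk3, a kinase of necroptosis. They were taken by the smallest root mean square distance between mean-centred log2 profiles, at 0.013 for Mrps11, 0.014 for Mpg and 0.015 for Ripk3. Ripk3 was at 1949 in WT 1, 2661 in WT 2, 2579 in KO 1 and 2565 in KO 2, low in WT 1 as Trp53 was. Such likeness over 4 points was not particular to these 3: 91 genes lay within 0.05 of Trp53.

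For most of the p53 genes, variation between libraries of a genotype exceeded what read counting alone gives. Taking a step as 1 read, the libraries numbered 1 and 2 differed by more than 2 counting errors in 11 of 16 pairs (8 genes, both genotypes). A counting error covers counting only and not PCR copies. The same count was not made over all genes, so whether this share is usual is not known. Trp53 differed 1.36-fold between the WT libraries, from 4031 and 6308 reads, and 1.03-fold between the KO libraries. Mdm4 and Trp53inp1 differed 1.45-fold and 1.44-fold between the WT libraries. Ei24 stayed within counting error in both genotypes. The mean difference between libraries 1 and 2 was larger than that between genotypes for 5 of the 8 genes, against 45.7% of all genes. It had the same sign in both genotypes for 3 of the 8 (Ccng1, Trp53inp1 and Ei24), against 59.7% of all genes.

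**Figure D3:**
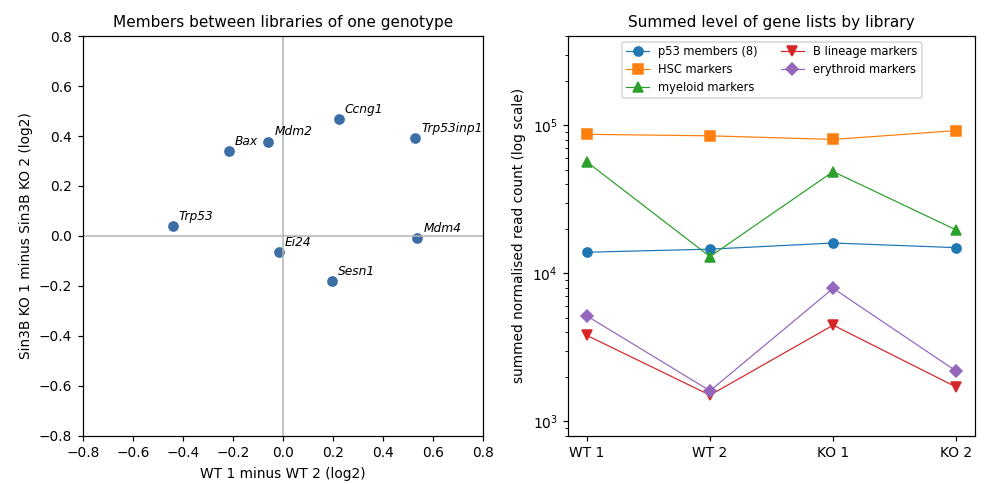
Left, log2 difference between libraries 1 and 2 in WT (x axis) and in Sin3B KO (y axis) for the 8 p53 genes; right, summed normalised read count (log axis) of the p53 genes and of 4 marker lists in each library. Ccng1 and Trp53inp1 lie in the upper right, high in both libraries numbered 1, as the myeloid, B lineage and erythroid sums are, while the p53 sum stays between 13880 and 16015.

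The wider pathway was read from lists written from general knowledge of it. Among 37 other direct p53 targets, 23 had values. The 14 without values included Gadd45a, Bbc3, Pmaip1 and Perp, and no gene with values had a mean below 120.2. Of the 23, 0 passed (limma, Benjamini-Hochberg), with 14 above 0, 9 below and a median of 0.08. Over all genes 53.4% were above 0. This split also depended on scaling. With libraries scaled to the same total 11 of the 23 were above 0, and with the same upper quartile 10. The shares of all genes were then 44.2% and 41.5%. The count at an unadjusted p under 0.05 was 1, against 8.91% of all genes. That gene was Gtse1, a microtubule-binding protein of G2 cells that takes p53 out of the nucleus, at 277.1 and 174.1 (WT) against 611.3 and 371.0 (KO) (difference 1.11, SE 0.37; limma adjusted p = 0.548). Ckap2, a spindle protein, was at 374.0 and 244.3 (WT) against 627.6 and 402.2 (KO) (difference 0.73), and Triap1, a small apoptosis inhibitor, at 563.2 and 772.5 (WT) against 920.8 and 947.1 (KO) (difference 0.50). In these 3 genes the KO pair lay wholly above the WT pair, as in 4 of the 23 genes of the list, against 24.7% of all genes. It lay wholly below in 2 of the 23, against 19.4% of all genes. Gtse1 and Ckap2 were also the higher in library 1 of each genotype.

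Thbs1, a matrix glycoprotein and inhibitor of vessel growth, stood out by 1 library: it was at 1001 in WT 1, 51.4 in WT 2, 108.6 in KO 1 and 41.9 in KO 2 (difference -1.74, SE 1.18; limma adjusted p = 0.612). The most abundant of the list were Gpx1, a glutathione peroxidase, at 22999 and 23064 (WT) against 27473 and 21722 (KO), and Pml, the scaffold of nuclear bodies, at 4021 and 5062 (WT) against 4542 and 5360 (KO). Their differences were 0.08 and 0.13. Cdkn1a, the p21 inhibitor through which p53 arrests the cell cycle, was named for that role outside the rule on named genes, after its values were seen. It was low in every library, at 141.4 and 139.5 (WT) against 192.2 and 112.4 (KO) (difference 0.07, 95% confidence interval -1.05 to 1.18; limma adjusted p = 0.968). The KO values of Cdkn1a bracketed those of WT, and the interval spans 0.484-fold to 2.26-fold.

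Regulators of the p53 protein, the kinases, acetylases and ubiquitin ligases that act on it, lay below 0 more often than above. Of 25 listed, 21 had values and 0 passed (limma), with 7 above 0, 14 below and a median of -0.16. Over all 9244 genes, 4311 were below 0. The list mixes cofactors of p53 with ligases that target it, so its median gives no direction of p53 activity. At an unadjusted p under 0.05 there were 2 of 21, a share near the 8.91% of all genes. Brd7, a bromodomain cofactor of p53, was at 1055 and 1159 (WT) against 1858 and 1647 (KO) (difference 0.66, SE 0.20; limma adjusted p = 0.548). Crebbp, an acetyltransferase of p53 and histones, was at 1856 and 1696 (WT) against 1136 and 1356 (KO) (difference -0.52, SE 0.21; limma adjusted p = 0.548). Its relative Ep300 was at 750.2 and 524.2 (WT) against 429.6 and 418.2 (KO) (difference -0.56, limma adjusted p = 0.550). Rfwd2, also called Cop1, a ubiquitin ligase that targets p53, was at 183.6 and 215.6 (WT) against 96.1 and 115.0 (KO) (difference -0.91, limma adjusted p = 0.550). In Crebbp, Ep300 and Rfwd2 the KO pair lay wholly below the WT pair, as it did in 8 of the 21 genes, against 19.4% of all genes. It lay wholly above in 4 of the 21, against 24.7% of all genes. The most abundant of the list were Npm1, the nucleolar protein that stabilises p53, and the damage sensor Trp53bp1, with differences of 0.05 and -0.26.

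Exon length moved with these values. Across 9000 genes the difference between genotypes was lower for longer exons (Spearman rho -0.235, a description over genes that share the same 4 libraries), with a median of 0.14 in the 1800 genes with the shortest exons and -0.13 in the 1800 with the longest. Of the p53 regulators 9 fall among those 1800 longest, and their median was -0.46. The median exon length was 5331 bases for the regulators, 4456.5 for the 8 p53 genes and 4664 for all genes, and the part of length in the regulators' values was not tested.

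The Bcl2 family and the apoptosome, the machinery in which Bax acts, lay on both sides of 0. Of 19 listed, 14 had values and 0 passed (limma), with 7 above 0, 7 below and a median of -0.0046. Bcl2, which holds Bax in check, was at 2286 and 1997 (WT) against 1507 and 1631 (KO) (difference -0.45, SE 0.20; limma adjusted p = 0.548). Bid, the BH3 protein that activates Bax, was at 1195 and 1598 (WT) against 1901 and 1781 (KO) (difference 0.41), and Xiap, a caspase inhibitor, at 1108 and 834.8 (WT) against 718.9 and 775.0 (KO) (difference -0.37). In these 3 genes the WT and KO values did not overlap. Over the list the KO pair lay wholly above in 3 of 14 genes and wholly below in 3, near the 24.7% and 19.4% of all genes. Bcl2l1 and Diablo, the most abundant of the list, had differences of 0.03 and 0.34.

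Close paralogs of the p53 genes were low, where they had values at all, which was in 4 of 10. Phlda2 was at 200.7 and 259.1 (WT) against 111.5 and 155.2 (KO) (difference -0.79, SE 0.43; limma adjusted p = 0.562). Ccng2 had a difference of -0.03, Sesn2 of -0.17 and Zmat1 of -0.37, and 0 of the 4 passed. Sesn2 and Apaf1 each stand in a pair of the lists. The median of the Bcl2 list, -0.0046 with all 4 libraries, moved with the library left out. It was 0.30 without WT 2, 0.097 without KO 1, 0.080 without KO 2 and -0.17 without WT 1. The regulators had 12 to 15 of 21 genes below 0 with each library left out.

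**Figure D4:**
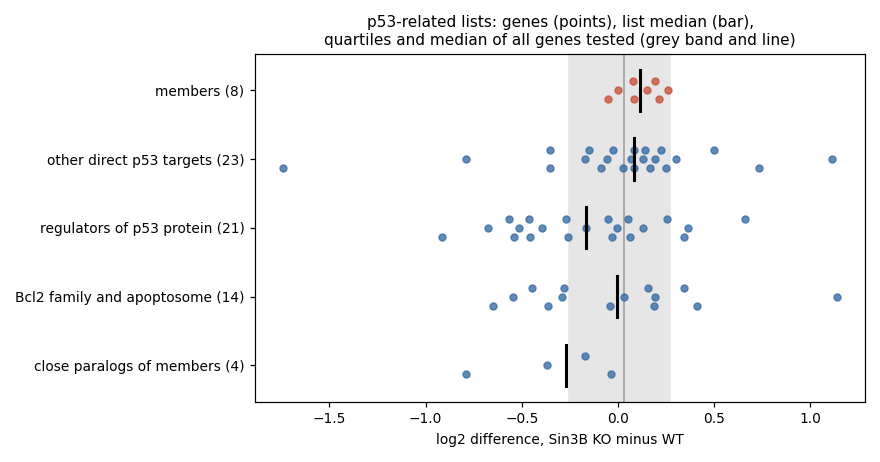
Difference between Sin3B KO and WT on the log2 scale (x axis) for each gene with values in 5 p53-related lists (points, number of genes in brackets), with the median of each list (black bar) and the median and quartiles of all 9244 genes (grey line and band). All 8 p53 genes lie within the band of all genes, from -0.26 to 0.27, while each of the other lists holds genes outside it.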

How the data were processed

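Polyadenylated RNA of 2 WT and 2 Sin3B KO libraries was sequenced from a low-input SMARTer preparation, per the labels' protocols. The authors worked with Bowtie and DESeq on build mm9, per the submitters' processing notes; the counting tool was not given in the sources used here, nor was the annotation. Of 9796 genes in the deposited table, 9244 have library values. The deposited library columns hold a signal, namely reads scaled by a single factor for each library, read from the numbers: 100% of them were whole multiples of 1 step within 0.01. Per the file headers the table also holds the authors' log2 fold change with its error, a test score and p-values before and after adjustment. The lowest mean in the table is 120.2.

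limma 3.58.1 in R 4.3.3, with a trended prior, was run on log2(value + 1) of all genes with values, with Benjamini-Hochberg adjustment over them. It was tested on simulated data. Count models were not run, because the table holds too few low values to establish whole reads by the rule used. The 8 genes with values, out of 10 named, and 4 related lists were read from this fit. The members and lists were chosen with earlier results of these data known. Beside the p53 genes, the text names from each list the 4 genes of smallest unadjusted p and the 2 most abundant, except 1 gene that is not reported here. Exon lengths and overlaps came from GENCODE M21 (GRCm38), by Ensembl identifier. Alternatives tried were 3 other scalings, a pseudocount of 0.1 or 5, a minimum mean of 500, a prior without trend, a replicate block, and leaving out each library in turn; counts per list in each were added after seeing the data.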

Additional observations from a re-analysis of the deposited data

How the results depend on the processing

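In each of the 12 alternatives that were run, 0 of the p53 genes passed (limma, lowest adjusted p = 0.369, without WT replicate 1), and the planned edgeR and DESeq2 tests on counts were not run. Small differences turned sign: Mdm2 was at -0.017 with trimmed mean scaling, -0.085 with the same total and -0.11 with the same upper quartile. Ccng1 was at -0.0063 and -0.035, and Sesn1 at -0.0026 and -0.031, in the last 2 of these. With each library left out in turn, the difference ranged from -0.027 to 0.41 for Trp53, -0.19 to 0.19 for Mdm2, -0.0089 to 0.53 for Mdm4, -0.15 to 0.31 for Ccng1, -0.015 to 0.18 for Sesn1, -0.018 to 0.32 for Bax and -0.32 to 0.21 for Trp53inp1. The cause was not tested beyond the fewer libraries. Ei24 stayed between 0.10 and 0.25 in its 11 alternatives, since a minimum mean of 500 leaves it out. Over all genes 0 to 1 passed with a library left out, where the 1 came without replicate 2 of WT or of Sin3B KO. With the replicate block 27 genes passed, Sin3b (limma adjusted p = 0.0282) and 0 p53 genes among them; deviations of WT 1 and Sin3B KO 1 from their group means correlated across genes at 0.465, but the numbers are not said to pair the libraries. The median 95% interval of the 8 p53 genes reached 1.43-fold to either side of the estimate. These intervals are not adjusted for the number of genes, so they do not give the smallest change that would pass. In the main fit Sin3b was 2.38-fold lower in the KO and did not pass (limma adjusted p = 0.548). Changes larger than 1.43-fold could thus also miss the threshold.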
